A study of Mus musculus with 6 samples.

Results

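The genes described are 10 members of the smooth muscle thin-filament and Srf system, out of 55414 gene identifiers in the deposited count table. They are the calponins Cnn1, Cnn2 and Cnn3, the transgelins Tagln and Tagln2, the leiomodin Lmod1, caldesmon (Cald1), myosin light chain kinase (Mylk), and the transcription factor Srf with its coactivator Myocd (myocardin). They were chosen by symbol, with earlier results of the same knockdown comparison known. RNA was sequenced from C2C12 cells, a mouse myoblast line of WT genotype, after transfection with siRNA-USF2 (siUsf2 1 to 3) or with the control siRNA-NC (siControl 1 to 3), 3 libraries per group. Usf2 encodes an E-box-binding transcription factor, and the study asked what its knockdown does to expression. The labels give culture in serum-supplemented growth medium and name neither a switch to differentiation medium nor the time after transfection. They do not say whether replicates were separate cultures, so each p-value rests on the variation among these libraries alone, and that variation may be technical.

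Smooth muscle contracts when myosin light chain kinase phosphorylates the regulatory light chain of myosin. Calponin and caldesmon bind actin filaments and restrain their interaction with myosin, transgelin bundles actin, and leiomodin nucleates new filaments. Many of these genes are known targets of Srf, which binds a DNA element called the CArG box and is driven at smooth muscle genes by myocardin, and in many other cells by the myocardin-related factors Mrtfa and Mrtfb. Srf also acts at skeletal muscle genes, and myoblasts carry several smooth muscle proteins before they differentiate.

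Library depth was 15817183, 14932880 and 3414565 counts in siUsf2 1 to 3, and 14790997 to 17715250 in siControl. The library labelled siUsf2 3 stood apart. Its Usf2 level was 30.8 CPM (counts divided by the library total and scaled up), within the 23.0 to 31.2 CPM of siControl, whereas siUsf2 1 and 2 held 17.1 and 15.3 CPM. Pearson's r across all detected genes, on the log2(CPM + 1) scale, was 0.884 to 0.888 between it and the rest and 0.991 to 0.996 within the rest. Pseudogenes took 0.974% of its counts, against 14% to 15.3% elsewhere. It is therefore shown apart below, and fold changes are given both for the 5 libraries without it and for all 6. Without it Usf2 fell by 0.74 in log2 units (edgeR adjusted p = 6.42e-04, standard error, SE, 0.14), and with it the fold change was -0.40 (edgeR adjusted p = 0.702, SE 0.28). The Usf2 level was itself among the reasons for setting siUsf2 3 apart. The p-value without that library is therefore no separate evidence of knockdown.

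The promoter windows show where the CArG box stands in these genes. RefSeq windows (GRCm38.p6) of 300 bases, 250 before the transcript start and 50 after it, were at hand for 8 of the 10 genes, in 9 windows since Cald1 has a pair of starts. The CArG box was found in 2 of the 9 windows, those of Srf and Cnn2, and in 1.63% of all 32851 windows. The CACGTG E-box, the element best known for USF binding, was in 0 of the 9 windows and in 7.15% of all windows. The looser CANNTG was in 5 of the 9 and in 72.3% of all. Both strands were searched, and the CArG matches overlapped no match of either E-box. The 250 bases before the start follow for Srf and Cnn2, which hold CArG boxes, and for Cnn1 and Lmod1, which showed the larger differences described below. Capitals mark the CArG boxes, and each sequence runs 5′ to 3′ along its gene.
Srf, chr17:46556163-46556412, - strand: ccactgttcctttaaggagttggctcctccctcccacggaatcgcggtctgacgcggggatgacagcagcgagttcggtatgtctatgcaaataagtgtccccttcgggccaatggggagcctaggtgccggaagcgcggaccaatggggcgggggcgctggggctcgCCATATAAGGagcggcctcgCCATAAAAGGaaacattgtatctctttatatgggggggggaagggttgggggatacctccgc
Cnn2, chr10:79988350-79988599, + strand: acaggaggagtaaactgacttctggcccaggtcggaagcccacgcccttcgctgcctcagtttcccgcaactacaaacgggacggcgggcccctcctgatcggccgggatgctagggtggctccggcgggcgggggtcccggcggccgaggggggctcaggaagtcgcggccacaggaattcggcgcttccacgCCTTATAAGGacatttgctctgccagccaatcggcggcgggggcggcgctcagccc
Cnn1, chr9:22099003-22099252, + strand: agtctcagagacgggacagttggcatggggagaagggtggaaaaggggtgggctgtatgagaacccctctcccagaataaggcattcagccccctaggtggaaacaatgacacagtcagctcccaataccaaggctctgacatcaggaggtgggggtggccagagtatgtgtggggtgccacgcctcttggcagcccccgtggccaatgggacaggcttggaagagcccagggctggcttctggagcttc
Lmod1, chr1:135324563-135324812, + strand: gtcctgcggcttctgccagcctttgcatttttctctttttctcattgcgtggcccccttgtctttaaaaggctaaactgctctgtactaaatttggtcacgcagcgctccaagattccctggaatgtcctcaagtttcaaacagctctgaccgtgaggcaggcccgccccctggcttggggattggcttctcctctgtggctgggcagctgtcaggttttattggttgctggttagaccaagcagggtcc
Counting the first base after these 250 as 0, the boxes of Srf lie at -82 to -73 and at -62 to -53, and that of Cnn2 at -56 to -47. A match is a stretch of letters only, and boxes outside the window were not searched.

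Of the 10 genes, 9 had counts and Myocd had none in any library. In siUsf2 1 and 2, Cnn1, Lmod1, Cald1 and Mylk lay above every siControl library in CPM, and they did so in siUsf2 3 as well. Tagln did so in siUsf2 1 and 2 only, which makes 5 of 9 genes in the 5 libraries, where 21.8% of all genes tested did, and 4 of 8 in the 6, where 11.4% did. Cnn2, Cnn3, Tagln2 and Srf overlapped between the groups. For Cald1 and Mylk the place of siUsf2 3 is less firm, since its exact Poisson intervals overlapped those of siControl 3. For Cnn1 and Lmod1 they did not. With the library scaling factors, Cald1 in siUsf2 3 fell below siControl 3. In such bulk RNA, fewer cells of a type and less RNA per cell cannot be told apart. Because the genes were chosen with this comparison known, their fold changes are descriptions and carry no p-value. The edgeR test across all genes called 4 of the 9 tested in the 5 libraries, Cnn1, Lmod1, Cald1 and Mylk, all higher, where 11.4% of 17217 genes were called in either direction and 4.97% higher. With all 6 libraries it called 0 of 8, where 0.042% of 16662 genes were called, none of them higher (1753 genes of either direction at an unadjusted p below 0.05, and 296 genes called higher by DESeq2). No weight is placed on these counts. The median log2 fold change was 0.47 over the 9 genes in the 5 libraries, beside -0.01 over all genes tested, and 0.44 over the 8 genes in the 6 libraries, beside -0.01.

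**Figure D1:**
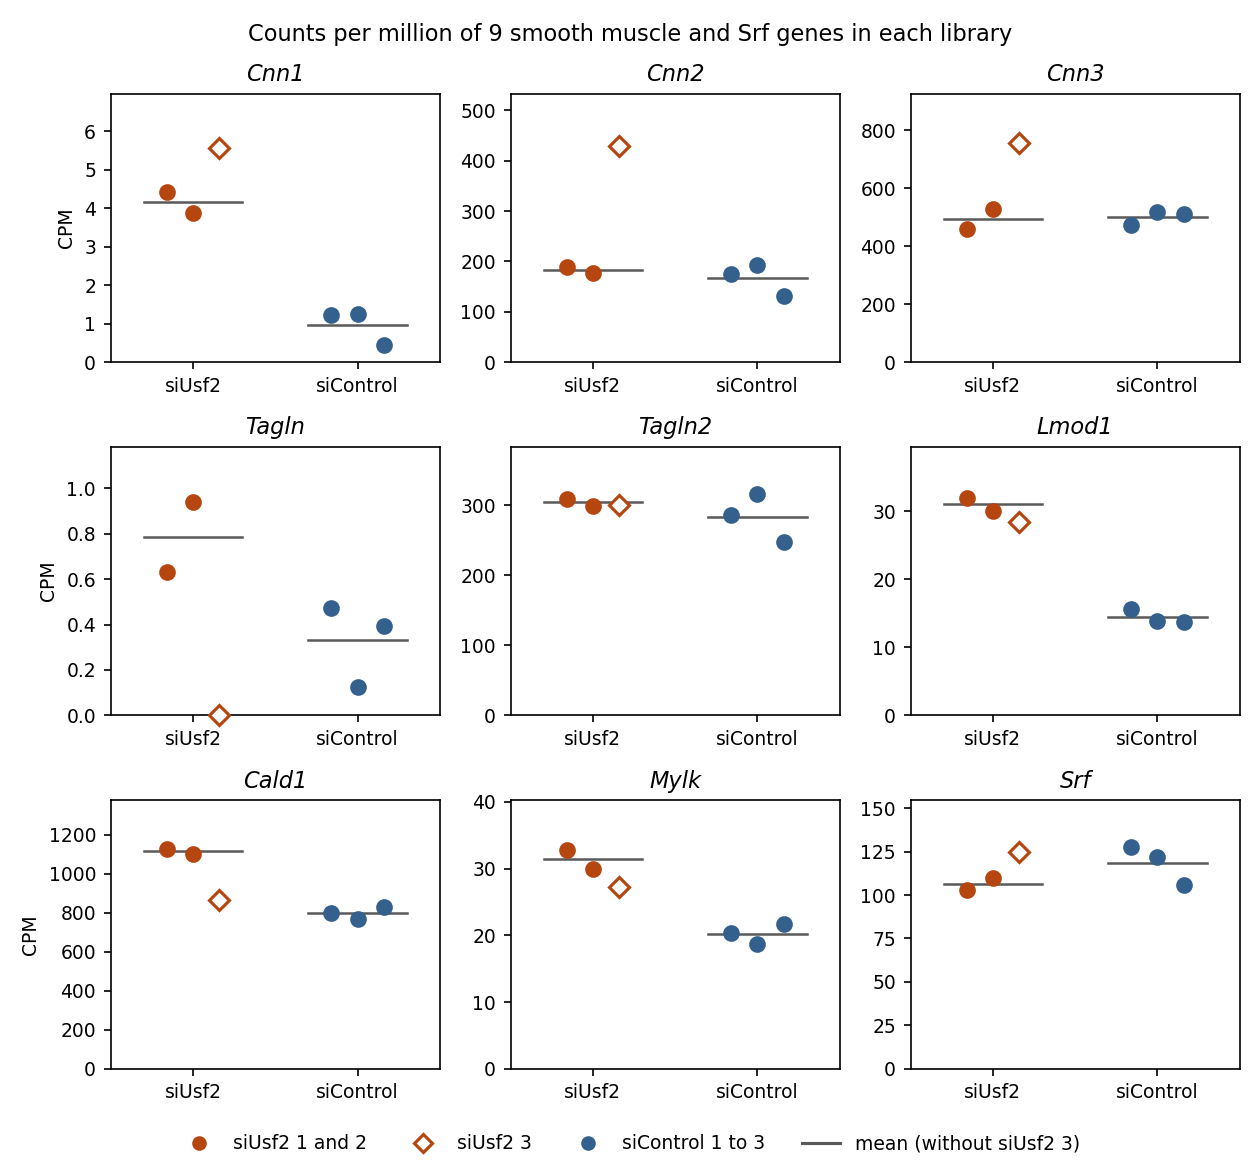
CPM of 9 genes (vertical axes, each from 0) in siUsf2 and siControl libraries. Filled circles are siUsf2 1 and 2 and siControl 1 to 3, the open diamond is siUsf2 3, and lines are means without siUsf2 3. Cnn1, Lmod1, Cald1 and Mylk lie above siControl in all 3 siUsf2 libraries, while Cnn2 and Cnn3 stand high in siUsf2 3 alone.

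Among the calponins, Cnn1 was a rare transcript with the largest ratio between the groups. Cnn1 (chromosome 9, 22099216 to 22109630, GRCm38, plus strand), the calponin of differentiated smooth muscle, had 4.43 and 3.88 CPM in siUsf2 1 and 2, 5.56 CPM in siUsf2 3, and 1.22, 1.25 and 0.452 CPM in siControl 1 to 3. These are 70, 58 and 19 counts in siUsf2 and 18, 20 and 8 counts in siControl. The groups did not overlap, and 11.4% of all genes tested in the 6 libraries likewise had every siUsf2 library above every siControl library. The log2 fold change was 2.10 (SE 0.38) in the 5 libraries and 2.19 (SE 0.42) in the 6. The counting error of the siUsf2 3 value is wide, with an exact Poisson 95% interval of 3.35 to 8.69 CPM, yet it stays above the 1.93 CPM that bounds the highest siControl interval. The siControl libraries varied among themselves by a coefficient of variation of 46.4% for this gene, against 3.75% for Cald1. Counting error is a larger part of the Cnn1 figure, at 8 to 20 counts per library against 11814 to 14690 for Cald1.

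Cnn2 and Cnn3 are the calponins of non-muscle and other cells, where they bind actin stress fibres. Cnn2 (chromosome 10, 79988584 to 79996062, plus strand) had 189 and 176 CPM in siUsf2 1 and 2, 429.9 CPM in siUsf2 3, and 175, 192 and 132 CPM in siControl 1 to 3. Its groups overlapped without siUsf2 3, and the log2 fold change was 0.12 (SE 0.12) in the 5 libraries and 0.63 (SE 0.38) in the 6. Cnn3 (chromosome 3, 121426497 to 121458207, plus strand) had 460.2 and 529 CPM in siUsf2 1 and 2, 758 CPM in siUsf2 3, and 475, 518 and 512 CPM in siControl. Its log2 fold change was -0.03 (SE 0.09) in the 5 libraries, where upper-quartile scaling gave 0.00, and 0.18 (SE 0.18) in the 6. The open reading frames of the 3 calponins are 68.2% to 71.9% identical in bases.

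Counts on pseudogene copies were a large part of the summed counts of each gene and its copies, and this differed between libraries. The copies were paired by sequence, and which transcript their reads came from was not tested. Cnn3 has the processed copies Gm4815 (96.6% identical) and Gm17936 (96.2%), and Cnn2 has AC016791.2 (90.1%). Of the reads on Cnn3 and its copies, 48.6% and 48.5% lay on the copies in siUsf2 1 and 2, 1.18% in siUsf2 3, and 47.9% to 48.5% in siControl. For Cnn2 the share was 26.4% and 26.5% in siUsf2 1 and 2, 0% (0 counts) in siUsf2 3, and 22.7% to 27.2% in siControl. With the copies added, Cnn3 held 896 and 1026 CPM in siUsf2 1 and 2, 767 CPM in siUsf2 3, and 923, 998 and 982 CPM in siControl, so that siUsf2 3 moved below every siControl library. The 6-library log2 fold change of Cnn3 then became -0.13 (SE 0.13), opposite in sign to the value without the copies. Cnn2 with its copy held 256 and 240.1 CPM in siUsf2 1 and 2, 429.9 CPM in siUsf2 3, and 231, 249 and 181 CPM in siControl, and siUsf2 3 stayed the highest.

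**Figure D2:**
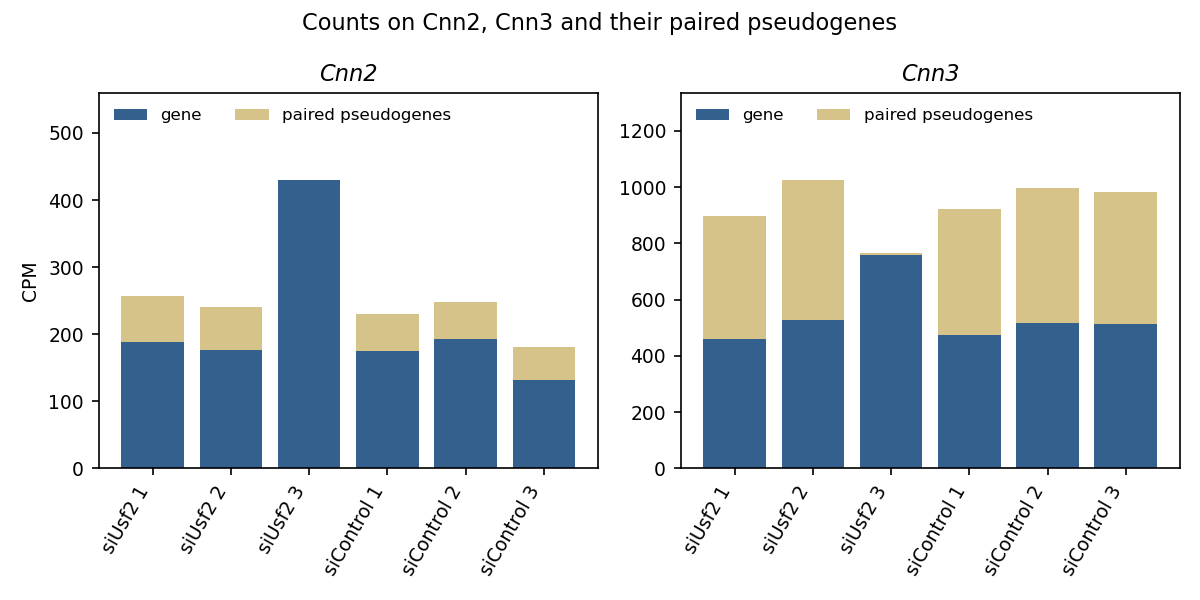
CPM (vertical axis, from 0) on Cnn2 and Cnn3 (blue) and on their paired pseudogenes (tan) in each library. Pseudogenes make up 47.9% to 48.6% of the Cnn3 bar in 5 libraries and 1.18% in siUsf2 3.

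Tagln was almost absent from the counts and Tagln2 abundant. Tagln (chromosome 9, 45929619 to 45936058, minus strand), transgelin or SM22, an early smooth muscle marker, had 10, 14 and 0 counts in siUsf2 1 to 3 and 7, 2 and 7 counts in siControl 1 to 3. This equals 0.632, 0.938 and 0 CPM in siUsf2 and 0.473, 0.125 and 0.395 CPM in siControl. The count of 0 in siUsf2 3 allows up to 0.879 CPM (3 counts), so that library cannot be placed. The summed level of siUsf2 1 and 2 was 2.37 times that of siControl, with an exact counting interval of 1.21 to 4.77 that leaves out the spread between replicates, and the log2 fold change in the 5 libraries was 1.21 (SE 0.70). Tagln did not pass the low-count filter of the main fit with 6 libraries. Of the exon bases of Tagln, 67.9% are shared with exons of Pcsk7 and the antisense gene Gm48529 on the other strand, where reads cannot be assigned without strand, and whether the counting used strand is not given in the sources used here. Pcsk7, a proprotein convertase, had 27.4, 26.0 and 35.1 CPM in siUsf2 1 to 3 and 30.2 to 34.4 CPM in siControl, and Gm48529 had 0.506, 2.28 and 0.293 CPM in siUsf2 1 to 3 and 0.687 to 1.52 CPM in siControl. The part of this overlap in the low Tagln count was not tested.

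Tagln2 (chromosome 1, 172500047 to 172507380, plus strand), the transgelin of many non-muscle cells, had 309.7 and 299.7 CPM in siUsf2 1 and 2, 300.5 CPM in siUsf2 3, and 286, 316 and 248 CPM in siControl 1 to 3. The groups overlapped fully. The log2 fold change was 0.09 (SE 0.09) in the 5 libraries and 0.07 (SE 0.10) in the 6. Of the reads per length on Tagln, Tagln2 and the neuronal Tagln3, Tagln2 took 99.6% or more in every library.

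Lmod1 was higher in all 3 siUsf2 libraries, siUsf2 3 included. Lmod1 (chromosome 1, 135324807 to 135368065, plus strand), the leiomodin of smooth muscle, had 31.9 and 30.0 CPM in siUsf2 1 and 2, 28.4 CPM in siUsf2 3, and 15.7, 13.8 and 13.7 CPM in siControl 1 to 3. The lowest siUsf2 library stood well above the highest siControl library. The log2 fold change was 1.09 (SE 0.13) in the 5 libraries and 1.04 (SE 0.12) in the 6, and it ranged from 0.99 to 1.16 over all alternatives tried.

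The striated muscle leiomodins moved the other way. Lmod2, which elongates thin filaments in the sarcomere, had 11.3, 13.9 and 20.2 CPM in siUsf2 1 to 3 and 44.6, 45.9 and 49.3 CPM in siControl, and it fell by 1.90 on the log2 scale in the 5 libraries (edgeR adjusted p = 4.19e-12, SE 0.13). Lmod3, needed for skeletal thin filaments, had 13.4, 14.6 and 22 CPM in siUsf2 1 to 3 and 46.6, 43.7 and 60.2 CPM in siControl, and fell by 1.86 (edgeR adjusted p = 1.94e-10, SE 0.14). With all 6 libraries neither passed (edgeR adjusted p = 0.071 and 0.0775). Counted per kilobase of exon (RPKM), Lmod1 made up 40.7%, 35.8% and 26.3% of the 3 leiomodins in siUsf2 1 to 3 and 8.35%, 7.52% and 6.22% in siControl 1 to 3. The leiomodin total was 19.9, 21.2 and 27.3 RPKM in siUsf2 and 47.6, 46.5 and 55.6 RPKM in siControl.

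Mylk and Cald1 act on either side of the smooth muscle contractile switch. Mylk (chromosome 16, 34745210 to 35002420, plus strand), the kinase that activates smooth and non-muscle myosin, had 32.8 and 30.0 CPM in siUsf2 1 and 2, 27.2 CPM in siUsf2 3, and 20.4, 18.7 and 21.6 CPM in siControl 1 to 3. Its log2 fold change was 0.62 (SE 0.12) in the 5 libraries and 0.54 (SE 0.13) in the 6. Antisense exons cover 6.85% of its exon bases. Cald1 (chromosome 6, 34598500 to 34775473, plus strand), which encodes both the smooth muscle and the non-muscle caldesmon, had 1129 and 1101 CPM in siUsf2 1 and 2, 864 CPM in siUsf2 3, and 799, 769 and 829 CPM in siControl. The siUsf2 3 value lay just above siControl in CPM. Its exact Poisson interval, 833 to 896 CPM, overlapped the 816 to 843 CPM of siControl 3. With the library scaling factors, Cald1 in siUsf2 3 fell below siControl 3. The log2 fold change was 0.47 (SE 0.08) in the 5 libraries and 0.34 (SE 0.14) in the 6. The gene-level counts do not separate the caldesmon isoforms.

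The relatives of Mylk split. Mylk4, a striated muscle kinase, had 2.72, 2.95 and 2.64 CPM in siUsf2 1 to 3 and 15.7, 12.3 and 19.9 CPM in siControl, and fell by 2.51 in log2 units (edgeR adjusted p = 4.90e-09, SE 0.23, 5 libraries; adjusted p = 0.0673 with 6). Mylk2, the skeletal muscle light chain kinase, had 8.47, 10.9 and 13.5 CPM in siUsf2 1 to 3 and 6.36, 9.31 and 7.45 CPM in siControl, at a log2 fold change of 0.32 (edgeR adjusted p = 0.352, SE 0.20). Mylk took 47.4%, 39.3% and 33% of the RPKM of the 4 kinase genes in siUsf2 1 to 3, and 29.7%, 25.9% and 27.1% in siControl 1 to 3. Mylk3, the cardiac kinase, had 5 counts or fewer in every library.

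**Figure D3:**
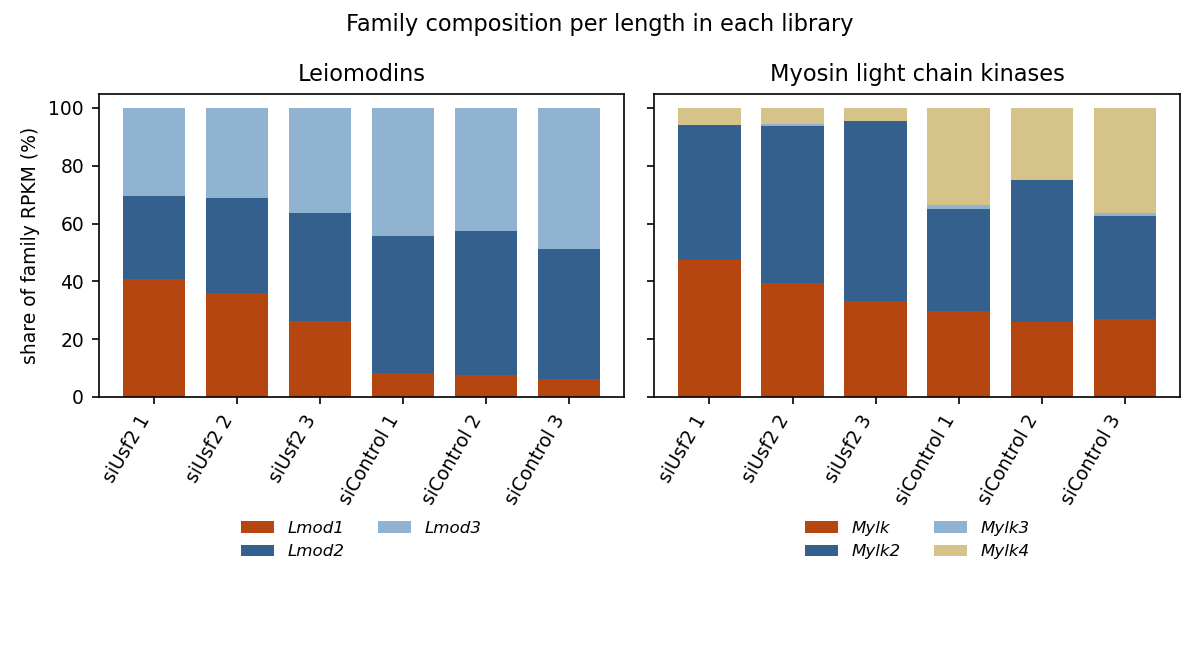
Share of each gene in the summed RPKM of its family (vertical axis, percent) in each library, for leiomodins (left) and myosin light chain kinases (right). The Lmod1 share is 26.3% to 40.7% in siUsf2 and 6.22% to 8.35% in siControl, and the Mylk4 share is smaller and the Mylk share larger in siUsf2 than in siControl.

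Srf overlapped between the groups and its coactivator Myocd had no counts. Srf (chromosome 17, 46548329 to 46556175, minus strand) had 103 and 110.0 CPM in siUsf2 1 and 2, 125 CPM in siUsf2 3, and 128, 122 and 106 CPM in siControl 1 to 3. The groups overlapped, with a log2 fold change of -0.16 (SE 0.09) in the 5 libraries and -0.11 (SE 0.10) in the 6. Without siControl 3 the 5-library test called Srf lower. Myocd (chromosome 11, 65176561 to 65269989, minus strand) had 0 counts in all 6 libraries, which allows up to 0.169 to 0.203 CPM (3 counts) in the 5 deeper libraries and 0.879 CPM in siUsf2 3.

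Per length, the genes spanned a wide range. In siControl the mean level was 165 RPKM for Cnn3, 136 for Tagln2, 67.6 for Cnn2, 66.4 for Cald1, 40.9 for Srf, 3.64 for Lmod1, 1.80 for Mylk, 0.356 for Cnn1 and 0.167 for Tagln. Cnn2 and Cald1 did not differ beyond the spread between libraries (SD 12.6 and 2.49 RPKM, n = 3). These levels and this comparison leave out reads on pseudogene copies. With the copies added, the siControl mean of Cnn2 was 220 CPM rather than 166, and that of Cnn3 was 968 CPM rather than 502. The order also depends on the length used, since the union of exons of Cald1 is long. With the median length of its coding transcripts Cald1 stood at 499 RPKM, second to Cnn3 at 599.9.

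**Figure D4:**
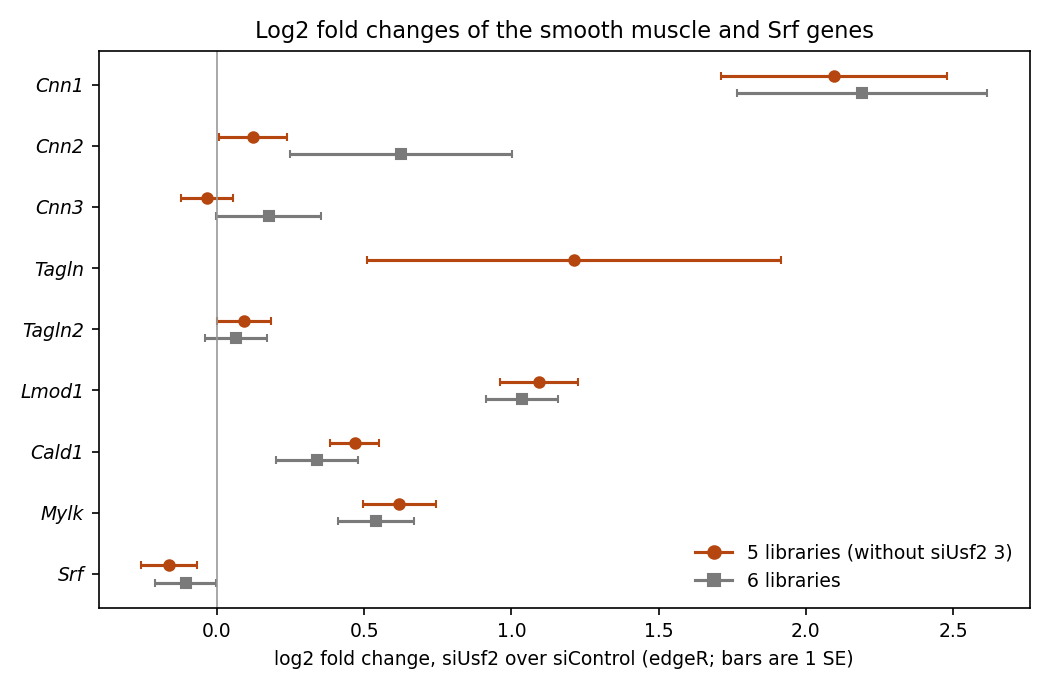
Log2 fold change of siUsf2 over siControl (horizontal axis) with 1 SE for 9 genes, from 5 libraries (circles) and 6 libraries (squares). Cnn1 and Lmod1 lie at 1 or above in both, Cald1 and Mylk between 0.34 and 0.62, and Cnn2 and Cnn3 shift with siUsf2 3.

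Other smooth muscle contractile genes were mixed. Over the 5 libraries, 22 were tested, of which 5 rose, 3 fell and 14 missed the threshold, beside 4.97% of all genes called higher and 6.4% lower. Their median log2 fold change was 0.16, beside -0.01 over all genes, and 0.29 with all 6 libraries. Actg2, the enteric smooth muscle actin, had 113, 117 and 158 CPM in siUsf2 1 to 3 and 53.6, 51.4 and 54.5 CPM in siControl (log2 fold change 1.10, edgeR adjusted p = 2.58e-10, SE 0.09). Tpm4, a cytoplasmic tropomyosin, rose by 0.40 (edgeR adjusted p = 0.00169, SE 0.08). Flna, the actin cross-linker filamin A, rose by 0.43 (edgeR adjusted p = 0.00178, SE 0.09), a call lost without siUsf2 2 (adjusted p = 0.0627).

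Csrp1, a LIM protein of smooth muscle, rose by 0.35 (edgeR adjusted p = 0.0104, SE 0.09), and Vcl (vinculin, named after its values were seen) rose by 0.27 (edgeR adjusted p = 0.0342, SE 0.08). Csrp1 was lost without siUsf2 1 (adjusted p = 0.169) or siControl 1 (0.0618), and Vcl without siUsf2 1 (0.209), siUsf2 2 (0.25), siControl 1 (0.0824) or siControl 2 (0.0996). Tpm2, the tropomyosin shared by smooth and slow skeletal muscle, had 471, 510.1 and 664 CPM in siUsf2 1 to 3 and 802, 871 and 859.5 CPM in siControl, and fell by 0.80 (edgeR adjusted p = 1.01e-07, SE 0.09). The junction protein Jph2 fell by 0.47 (edgeR adjusted p = 0.00135, SE 0.10), but stood at 305 CPM in siUsf2 3, above the 231 to 297 CPM of siControl, and its 6-library log2 fold change was -0.26 (edgeR adjusted p = 0.726). Des (desmin) fell by 0.35 (edgeR adjusted p = 0.0146, SE 0.09), a call lost without siUsf2 1 (adjusted p = 0.192), siUsf2 2 (0.0703), siControl 1 (0.0794) or siControl 2 (0.0702). Pdlim3, a PDZ and LIM protein, was at -0.23 (edgeR adjusted p = 0.0882). With all 6 libraries edgeR called 0 of 22 (9 at an unadjusted p below 0.05), and DESeq2 called 4 higher and 1 lower.

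The smooth muscle markers ranged from no counts to abundant. Myh11, the defining smooth muscle myosin, had 0 to 2 counts per library, Myocd had 0, and Kcnmb1 stayed under 1 CPM. Smtn (smoothelin, named after its values were seen) had 109, 96.2 and 152 CPM in siUsf2 1 to 3 and 96.4, 94.1 and 86.3 CPM in siControl (log2 fold change 0.14, edgeR adjusted p = 0.36), and Actg2 and Lmod1 were present as given above. The alpha-actin Acta2 (named after its values were seen) had 1517 and 1625 CPM in siUsf2 1 and 2, 2533 CPM in siUsf2 3, and 1760, 1881 and 1783 CPM in siControl. Its log2 fold change was -0.22 (edgeR adjusted p = 0.111, SE 0.09), and with all 6 libraries the sign turned, at 0.02. The 8 smooth muscle markers, mostly Acta2, summed to 1775 to 1872 CPM in siUsf2 1 and 2, 2878 CPM in siUsf2 3 and 1927 to 2043 CPM in siControl. The sum was thus below every siControl library in siUsf2 1 and 2 and above them in siUsf2 3, and the list shares Cnn1, Lmod1 and Myocd with the 10 genes. The 8 myoblast and myocyte markers summed to 2301 to 2460 CPM in siUsf2 1 and 2, 3488 CPM in siUsf2 3 and 4789 to 5309 CPM in siControl. Over the 5 libraries 6 of the 8 fell, 1 (Myf5, named after its values were seen) rose and 1 missed the threshold. Of all genes in that fit, 4.97% were called higher and 6.4% lower. With all 6 libraries edgeR called 0 of these 8 (4 at an unadjusted p below 0.05). The 6 fibroblast markers, which myoblasts also express in part, summed to 1405 to 1436 CPM in siUsf2 1 and 2, 3239 CPM in siUsf2 3 and 1239 to 1273 CPM in siControl. Over the 5 libraries 1 of 5 tested, Col1a1, rose, beside the same 4.97% of all genes. Of these markers, 4 were tested with all 6 libraries and 0 were called. Endothelial and macrophage markers summed to 2.05 CPM or less in every library. The part of these shifts in the values of the 10 genes was not tested.

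The Srf cofactors also went both ways. Among 12 tested with 5 libraries, 2 rose, 1 fell and 9 missed the threshold, beside 4.97% of all genes higher and 6.4% lower. Their median log2 fold change was 0.18, beside -0.01 over all genes. Csrp2, a LIM protein of smooth muscle, had 42.2, 35.5 and 60.3 CPM in siUsf2 1 to 3 and 27.0, 30.8 and 24.0 CPM in siControl (log2 fold change 0.50, edgeR adjusted p = 0.00618, SE 0.12), and was lost without siUsf2 1 (adjusted p = 0.188). Fhl2, a LIM cofactor of Srf, rose by 0.28 (edgeR adjusted p = 0.037, SE 0.09), which was lost without siUsf2 1 (adjusted p = 0.351), siUsf2 2 (0.139), siControl 1 (0.108) or siControl 2 (0.0547), and without the low-count filter (0.0526). Klf5, a zinc finger factor, had 83.5, 91.9 and 94.6 CPM in siUsf2 1 to 3 and 132, 124 and 140.2 CPM in siControl, and fell by 0.61 (edgeR adjusted p = 3.22e-05, SE 0.09). Fhl1 and Klf4 were at 0.22 and 0.39 (edgeR adjusted p = 0.105 and 0.116), and Gata4 and Elk4 at -0.31 and -0.04 (edgeR adjusted p = 0.172 and 0.859).

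The myocardin-related factors, named after their values were seen, were present where Myocd was not. Mrtfa had 113, 96.6 and 120.4 CPM in siUsf2 1 to 3 and 95.7, 96.8 and 82.1 CPM in siControl, and Mrtfb had 69.6, 75.5 and 50.1 CPM in siUsf2 1 to 3 and 65.0, 55.3 and 71.6 CPM in siControl. Both overlapped between the groups. Their log2 fold changes were 0.19 (edgeR adjusted p = 0.234, SE 0.10) and 0.17 (edgeR adjusted p = 0.337, SE 0.11) in the 5 libraries.

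Immediate early and actin cytoskeleton targets of Srf numbered 24, of which 3 rose, 2 fell and 19 missed the threshold with 5 libraries, beside 4.97% of all genes higher and 6.4% lower. Their median log2 fold change was 0.07, beside -0.01 over all genes, and 0.21 with all 6 libraries. Thbs1 (thrombospondin) had 2841, 2461 and 2482 CPM in siUsf2 1 to 3 and 1893, 1629 and 2010.2 CPM in siControl, and rose by 0.51 (edgeR adjusted p = 5.83e-04, SE 0.10). The nuclear receptor Nr4a1 rose by 0.63 (edgeR adjusted p = 0.00129, SE 0.13) and was lost without siUsf2 1 (adjusted p = 0.213). Wdr1, a cofilin partner, rose by 0.28 (edgeR adjusted p = 0.0275, SE 0.08) and was lost without siUsf2 1 (adjusted p = 0.284), siUsf2 2 (0.15) or siControl 1 (0.091).

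On the lower side were Egr1 and Pfn1. Egr1, a zinc finger factor of the early growth response, had 168, 196 and 162 CPM in siUsf2 1 to 3 and 225, 239 and 208 CPM in siControl, at a log2 fold change of -0.31 (edgeR adjusted p = 0.0259, SE 0.09). It was lost without siUsf2 1 (adjusted p = 0.504), siControl 1 (0.105) or siControl 2 (0.0957). Pfn1 (profilin, which feeds actin monomers to filaments) fell by 0.40 (edgeR adjusted p = 0.0146, SE 0.10), was lost without siUsf2 1 (adjusted p = 0.0703), siControl 1 (0.0966) or siControl 2 (0.0685), and stood at 599 CPM in siUsf2 3, above every siControl library, and its 6-library log2 fold change was 0.01. Ier2 and Junb were at -0.42 and -0.46 (edgeR adjusted p = 0.0518 and 0.192) and Ccn2 at 0.31 (edgeR adjusted p = 0.089). With all 6 libraries edgeR called 0 of the 24 (6 at an unadjusted p below 0.05, and 3 called by DESeq2) and 0 of the 12 cofactors (4 at an unadjusted p below 0.05, and 2 called by DESeq2).

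The skeletal contractile genes stood on the other side of zero. With 5 libraries 31 were tested, of which 28 fell, 0 rose and 3 (Ttn, Neb and Mylk2) missed the threshold, beside 6.4% of all genes lower, with a median log2 fold change of -2.0. Mybph, a myosin-binding protein, had 22.6, 25.8 and 51.3 CPM in siUsf2 1 to 3 and 130.4, 121 and 146 CPM in siControl, a log2 fold change of -2.46 (edgeR adjusted p = 1.24e-15). Tnni1, slow troponin I, had 59.7, 73.9 and 149 CPM in siUsf2 1 to 3 and 282, 287 and 305 CPM in siControl, a log2 fold change of -2.14 (edgeR adjusted p = 2.17e-15). Acta1 and Myh3, the skeletal actin and the embryonic myosin, were at log2 fold changes of -2.09 (edgeR adjusted p = 1.44e-15) and -3.20 (edgeR adjusted p = 2.17e-15).

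Most skeletal genes were below siControl in siUsf2 3 too. The list median there was -1.01 against the siControl mean on the log2(CPM + 1) scale, with 22 of 31 genes below every siControl library and 7 above. The 7 above, named after their values were seen, were Myl1, Mylpf, Tnnt1, Tnnt2, Tnnt3, Actn3 and Mylk2. Among them Mylpf had 187 CPM in siUsf2 3 and 53.7 to 71.2 CPM in siControl. Tnnt1 had 192 CPM in siUsf2 3 and 67.6 to 71.7 CPM in siControl. Over all genes tested, siUsf2 3 lay below every siControl library for 42.8% and above for 38.5%. Of the 9 smooth muscle and Srf genes tested, 6 lay above in siUsf2 3, Tagln2 and Srf lay within the siControl range, and Tagln, at 0 counts, could not be placed. Among the 8 tested with 6 libraries, 6 lay above, where 39.6% of genes did, and 0 below, where 42.1% did. These positions are in CPM on the gene alone, and not all of them hold otherwise. With pseudogene copies added, Cnn3 stood at 767 CPM in siUsf2 3, below every siControl library. With the library scaling factors, Cald1 in siUsf2 3 fell below siControl 3. With all 6 libraries edgeR called 0 of 30 skeletal genes (21 at an unadjusted p below 0.05) at a median of -1.66, and DESeq2 called 18 lower. Of the 30 log2 fold changes in that edgeR fit, 26 were negative. The 4 positive ones were those of Myl1 (0.17), Mylpf (0.07), Tnnt1 (0.33) and Mylk2 (0.46).

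**Figure D5:**
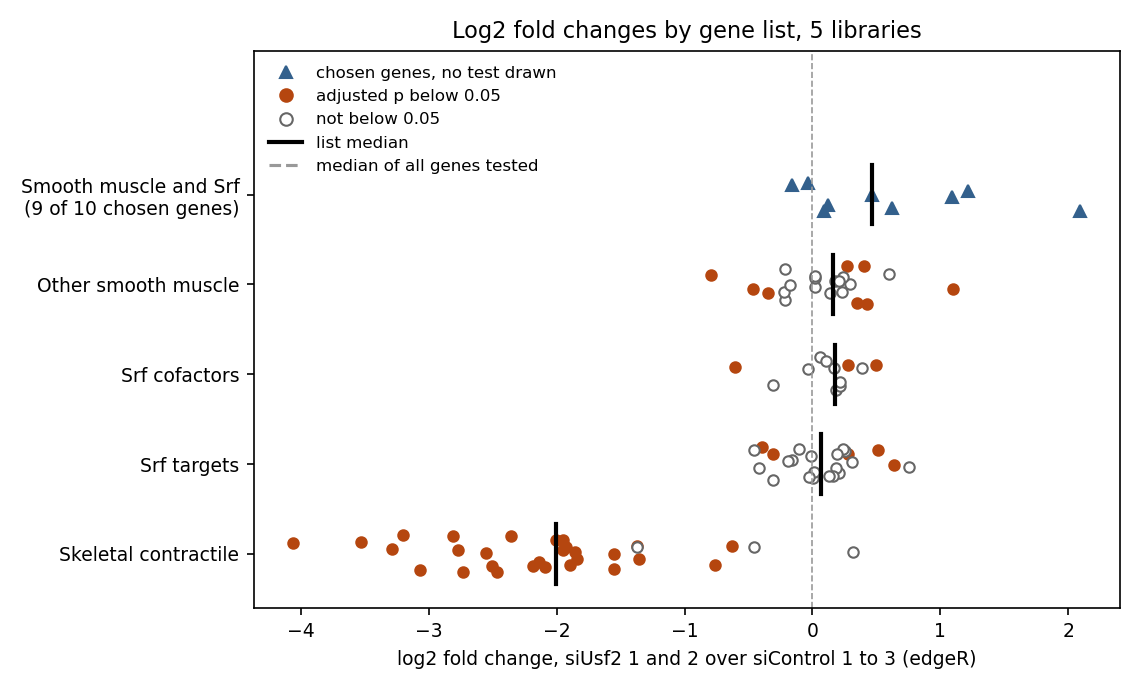
Log2 fold change of siUsf2 1 and 2 over siControl 1 to 3 (horizontal axis) for each tested gene of 5 lists. Filled circles passed the edgeR test, open circles did not, triangles are the chosen genes with no test drawn, bars are list medians and the dashed line is the median of all genes. The chosen genes have a median of 0.47 and the skeletal contractile genes one of -2.0.

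Genes with a like profile were found by Euclidean distance of log2 CPM (prior count 2), centred on the siControl mean, over the 6 libraries, among named genes whose average log2 CPM reached 3. Nearest to Cnn1 were Car9 (distance 1.58), Psrc1 (1.67) and Pappa (1.75). Car9, a carbonic anhydrase, had 54.4, 50.1 and 53.9 CPM in siUsf2 1 to 3 and 23.3, 19.2 and 17.3 CPM in siControl. Nearest to Srf were Cyth1 (0.058), Faap100 (0.059) and Ajuba (0.069). Nearest to Tagln, at its very low counts, were Nipa1 (1.33), Ermard (1.35) and Entpd4b (1.36). These distances describe 6 libraries and say nothing of shared control.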

How the data were processed

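The deposited table holds read counts per Ensembl gene in 6 libraries, with no normalization by the authors. Per the submitters' processing notes reads were placed on mm10, and tools listed are HISAT2 and featureCounts, with DESeq2, FastQC and Trimmomatic. Versions and roles of these tools, the annotation and any strand setting: not given in the sources used here. The deposited table named for TPM was not used. Symbols, positions and exon unions came from GENCODE M21 (GRCm38), which gave a symbol to 52081 of 55414 identifiers. Groups and replicate numbers came from the sample titles.

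siUsf2 was compared with siControl by edgeR 4.0.16 in R 4.3.3 (filterByExpr, TMM, robust glmQLFit, two-sided glmQLFTest). Adjusted p-values are Benjamini-Hochberg values across every gene of a fit, with a call at an adjusted p below 0.05. SE is the log2 fold change divided by the root of the F statistic. The genes and lists were chosen with earlier results of these data known, so calls and p-values of list genes are no independent evidence. List genes are named by the smallest p in each direction, up to 4. Pseudogene transcripts were aligned to coding transcripts with minimap2 2.31, keeping pairs of 90% identity or more over 50% of the pseudogene and 150 bases, pairing 6767 pseudogenes with 2453 parents. Alternatives included DESeq2 1.42.0 and limma-voom (limma 3.58.1). The test was tried on counts simulated with the same dispersion for every gene and no library standing apart. That trial therefore cannot speak for the fit that holds siUsf2 3. A count of 0 allows 3 counts, 0.169 CPM in the deepest library and 0.879 CPM in siUsf2 3, and these limits and the Poisson intervals cover counting error only. Replicates differed by more than counting noise (chi-square per degree of freedom 4.18 to 11.9, and 91.9 or more for siUsf2 3 against siUsf2 1 and 2).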

Additional observations from a re-analysis of the deposited data

How the results depend on the processing

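Cnn1, Lmod1, Cald1 and Mylk kept a positive fold change under every alternative in both comparisons. With 5 libraries all 4 stayed called, except that Cnn1 was not tested under a filter of at least 50 counts in 3 libraries. The genes were chosen with this comparison known, so this adds no weight to their calls. Some small fold changes turned sign. With 5 libraries these were Cnn2 under the replicate block and without siControl 3 (both -0.01), and Cnn3 without siUsf2 1 (0.08) and with upper-quartile scaling (0.00). With 6 they were Cnn3 without siUsf2 3 (-0.03) and with pseudogene counts added (-0.13), and Tagln2 without siControl 3 (-0.01). With all 6 libraries the calls depended on the tool and on siUsf2 3, and the cause was not tested. There DESeq2 called 296 genes higher and 410 lower (of the 10 genes 3 higher, skeletal 18 lower, other smooth muscle 4 higher and 1 lower, cofactors 1 and 1, targets 3 higher). Limma-voom called 19 higher and 85 lower (1 of the 10, skeletal 12, other smooth muscle 1). Without a low-count filter it was 12 and 104 (1 of the 10, skeletal 11, other smooth muscle 1), and with pseudogene counts added 59 and 177 (2 of the 10, skeletal 16, other smooth muscle 1 higher, cofactors 1 lower). The 7 lower calls became 4 with RLE scaling or the 50-count filter, 3 with library size only and 0 with upper-quartile scaling. Leaving out 1 library gave 0 to 855 higher and 0 to 1102 lower, 0 to 4 of the 10 genes higher, 0 to 28 skeletal genes lower, other smooth muscle 0 to 5 higher and 0 to 3 lower, cofactors 0 to 2 higher and 0 to 1 lower, and targets 0 to 3 higher and 0 to 2 lower. The upper end came without siUsf2 3 in each case.

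With 5 libraries, leaving out 1 gave 349 to 1596 higher and 519 to 1964 lower, other smooth muscle 3 to 7 higher and 2 to 6 lower, cofactors 0 to 5 higher, targets 0 to 6 lower, and 0 to 1 of the 10 genes lower (Srf, without siControl 3). Without a low-count filter cofactors had 1 higher and targets 4 lower, and limma-voom gave 4 targets lower. Whether replicate numbers pair the libraries could not be decided. Deviations of same-numbered libraries from their group means correlated at -0.074, -0.005 and -0.073. However, siUsf2 3 stood apart and dominated the siUsf2 deviations, so siUsf2 1 and 2 gave nearly the same values. Against siControl 1 to 3 these were -0.074, -0.009 and 0.074 for siUsf2 1, and -0.071, -0.005 and 0.067 for siUsf2 2. With the replicate number as a block, 5 libraries gave 1719 higher and 2270 lower, 1 of the 10 genes lower (Srf), other smooth muscle 6 lower, cofactors 5 higher, and targets 5 higher and 6 lower, while 6 libraries gave 0 and 0. In the 5 libraries replicate number 3 holds siControl 3 alone, so that library does not enter the blocked comparison. The Srf call there is thus not separate from the one without siControl 3. Depth limits Tagln, Myocd and Cnn1.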
